A study of Homo sapiens with 6 samples.

Results

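The 5 genes described here are HMGA1, HMGA2, IGF2BP1, IGF2BP2 and IGF2BP3, taken by name from the 12654 genes of the deposited table. All 5 were listed and all 5 had a mean score of at least 50 over the libraries. RNA-seq was done on LX2, a long-established line of hepatic stellate cells, the collagen-making cells of the liver (human). All cells carried a pLKO.1 lentiviral hairpin and were selected with 1 µg/ml puromycin. In every group the medium held 10% serum, and polybrene (1 µg/ml) was present during the 10 h of infection. The shLuc group carried a control hairpin against firefly luciferase. The shMETTL3-1 and shMETTL3-2 groups each carried a different hairpin against METTL3, the methyltransferase that places N6-methyladenosine (m6A) in messenger RNA. Each group had 2 libraries. The set was chosen by the members' scores in these 3 groups, with the differences from shLuc in view, so their levels and differences are given as a description, with no p-value.

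The HMGA proteins are small chromatin proteins that bind the minor groove of AT-rich DNA through AT-hooks and bend it for other factors. HMGA2 is abundant in embryonic tissue, is silent in most adult tissue and returns in many tumours, whereas HMGA1 is more widely kept in dividing cells. The IGF2BP proteins bind messenger RNA through RRM and KH domains, guard bound transcripts from decay, and have been described as readers of m6A. IGF2BP1 and IGF2BP3 are largely fetal, while IGF2BP2 stays on in adult tissue. The let-7 microRNAs repress HMGA2 and the IGF2BPs, LIN28B blocks the maturation of let-7, and HMGA2 is known to activate transcription of IGF2BP2.

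Since let-7 is the best known shared repressor of these genes, its seed matches are shown first. All 9 mature let-7 and miR-98 names in RefSeq (GRCh38.p14) carry the same seed at bases 2 to 8, in capitals in let-7a-5p and in let-7g-5p, which differ outside it. They lie at chr9:94175962-94175983 (plus strand) and chr3:52268336-52268357 (minus strand) of that build. let-7 itself was not measured.
let-7a-5p: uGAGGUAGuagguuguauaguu
let-7g-5p: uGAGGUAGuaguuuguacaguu

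The complement of that seed, CTACCTC on the sense strand, was searched in the 3′ UTR of the transcript that the table names for each gene. HMGA2 held 4 matches in 2999 bases and IGF2BP1 held 4 in 6701 bases. HMGA1 (1347 bases), IGF2BP2 (2401 bases) and IGF2BP3 (2153 bases) held 1 each. Over the 9189 listed genes with an annotated 3′ UTR, 10.2% held at least 1 match and 110 genes held 2 or more. Longer 3′ UTRs held one more often, at 13.4% of those of 1500 to 3500 bases and 36.0% of those over 5000 bases. LIN28B, an RNA-binding protein that is no member, held 4 in 4549 bases. A match is a run of letters and not a measured site.

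The 4 matches of HMGA2, the gene with the largest difference, and the match nearest the stop codon in each other member are printed with the seed match in capitals (hg19). Those of HMGA2 lie on the plus strand at chr12:66357078-66357100, chr12:66358313-66358335, chr12:66358725-66358747 and chr12:66359578-66359600. The HMGA1 match lies at chr6:34213606-34213628 and that of IGF2BP1 at chr17:47128423-47128445, both on the plus strand. Those of IGF2BP2 (chr3:185362008-185362030) and IGF2BP3 (chr7:23351414-23351436) lie on the minus strand. The first HMGA2 match starts 21 bases after the stop codon and is followed by A, as are the printed matches of all 3 IGF2BP genes, whereas that of HMGA1 and the other 3 of HMGA2 are not.
HMGA2 match 1: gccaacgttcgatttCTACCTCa
HMGA2 match 2: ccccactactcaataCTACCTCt
HMGA2 match 3: ttgacttgcaaagacCTACCTCc
HMGA2 match 4: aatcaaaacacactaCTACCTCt
HMGA1 match: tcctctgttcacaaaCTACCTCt
IGF2BP1 match 1: tgtgtgcgaagtaaaCTACCTCa
IGF2BP2 match: aacacacagaagaagCTACCTCa
IGF2BP3 match: tgcatttttactcaaCTACCTCa

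**Figure D1:**
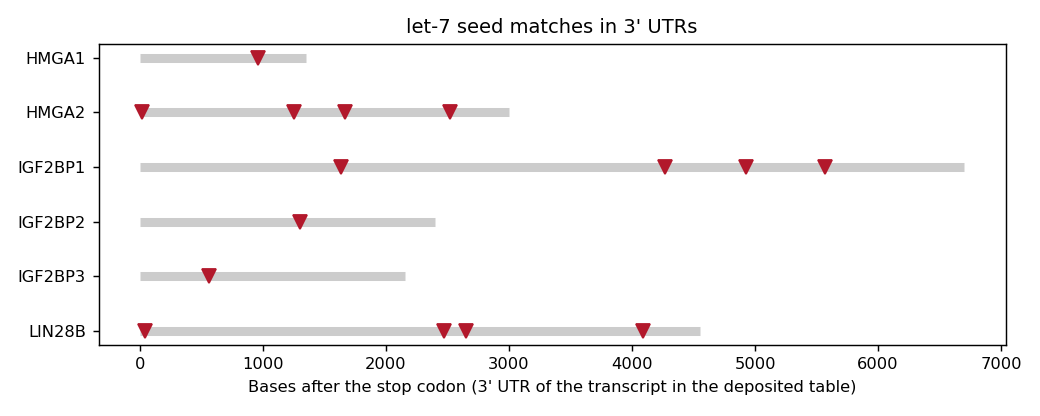
Positions of let-7 seed matches (triangles) along the 3′ UTR of the transcript listed for each gene, in bases after the stop codon; grey bars give the UTR length. HMGA2, IGF2BP1 and LIN28B hold 4 matches each, and HMGA1, IGF2BP2 and IGF2BP3 hold 1 each.

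The sequence GGACT, a common m6A consensus, occurred 5 times in the HMGA2 transcript (1.21 per kb) and 9 times in that of IGF2BP1 (1.02 per kb). It occurred 2 times in HMGA1 (1.13 per kb), 5 times in IGF2BP2 (1.17 per kb) and 2 times in IGF2BP3 (0.468 per kb). The median over 12144 matched transcripts of the table was 0.935 per kb. Among these transcripts HMGA1, HMGA2, IGF2BP1 and IGF2BP2 lay at percentiles 54.5 to 64.0, and IGF2BP3 lay at 24.8. No methylation was measured here.

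The scores of all libraries share 1 distribution with a median of 552, so a score is close to a rank and its depth is unknown. The median gap between the replicates of a group was 0.0766 to 0.102 (log2). METTL3, the target, scored 536 and 552 under shLuc, 274 and 256 under shMETTL3-1, and 148 and 132 under shMETTL3-2. Its mean was thus 2.05-fold and 3.89-fold lower, and the groups did not overlap. Of 12 markers of stellate cells and myofibroblasts 11 were listed, each scoring at least 630 in every library. Of 19 markers of hepatocytes, endothelial cells, leukocytes and bile duct cells 8 were listed, with hepatocyte markers summing to 218 to 342 and the bile duct marker KRT7 at 86 to 144. The 2 endothelial markers summed to 236 to 268 under shLuc, 57 to 89 under shMETTL3-1 and 53 to 55 under shMETTL3-2. The 3 leukocyte markers, mostly CD68, summed to 841 to 867, 1167 to 1514 and 1446 to 1451. The part of other cell types in the results was not tested, and in bulk RNA fewer cells of a type and less RNA per cell cannot be told apart.

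**Figure D2:**
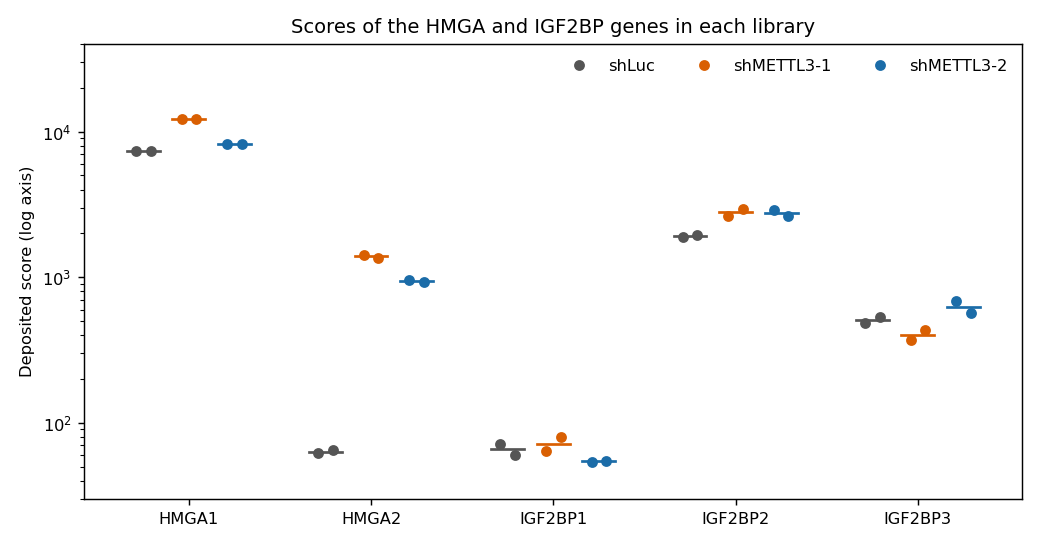
Deposited score of each gene in each library on a log axis, with 2 libraries per group as points and the group mean as a bar. HMGA2 rises from 62 and 65 under shLuc to between 920 and 1425 with the METTL3 hairpins, while the other genes stay within a narrower range.

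HMGA2 (ENSG00000149948, chromosome 12, 66217911 to 66360075 in hg19, plus strand) scored 62 and 65 under shLuc. It scored 1425 and 1362 under shMETTL3-1, and 963 and 920 under shMETTL3-2. The shLuc libraries were low, both METTL3 hairpins were high, and no groups overlapped. The group means were 63.5 ± 2.12 under shLuc, 1394 ± 44.6 under shMETTL3-1 and 941.5 ± 30.4 under shMETTL3-2 (SD, n = 2). This is a level 21.9-fold higher under shMETTL3-1 and 14.8-fold higher under shMETTL3-2.

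On the log2(score + 1) scale HMGA2 differed by 4.43 and 3.87, which ranked 23rd and 44th from the highest of 12413 tested genes. Its replicates lay 0.0652 to 0.0671 apart on that scale. Within each library its place moved from above 6.02% and 6.61% of listed genes under shLuc to above 64.8% to 76.5% with the METTL3 hairpins. Between the METTL3 hairpins its level was 1.48-fold higher under shMETTL3-1 than under shMETTL3-2. METTL3 was 1.89-fold higher there too. The annotation places RPSAP52, HMGA2-AS1 and another noncoding gene on the opposite strand of the HMGA2 locus. Without a stated strand setting, reads from these and from HMGA2 cannot be told apart.

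HMGA1 (ENSG00000137309, chromosome 6, 34204650 to 34214008, plus strand) scored 7369 in both shLuc libraries, 12136 in both shMETTL3-1 libraries and 8259 in both shMETTL3-2 libraries. It was higher with both hairpins, with no overlap between groups, by 1.65-fold and 1.12-fold. The log2 differences were 0.72 and 0.16, and the hairpins differed by -0.56. HMGA1 lay above 97.7% of listed genes under shLuc and above 99.0% under shMETTL3-1.

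The equal HMGA1 scores within groups are no measure of precision, because high scores come in steps. Among 192 genes with a mean score from 6000 to 9000, replicates tied in 13.5% of genes under shLuc, 24.0% under shMETTL3-1 and 14.1% under shMETTL3-2. From 9000 to 15000 the shares were 35.6%, 36.5% and 25.0% of 104 genes, and 5 genes tied in all 3 groups. The median replicate SD of the genes with scores like that of HMGA1 was 0.0568 on the log2 scale, and the difference of 0.16 under shMETTL3-2 can be set beside it. The annotation also names 8 HMGA1 pseudogenes, whose reads could be split from or added to the gene.

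Within each library the ratio of HMGA1 to HMGA2 changed with the hairpins. Scored per kb of transcript, HMGA1 stood 276-fold and 263-fold above HMGA2 in the shLuc libraries. With shMETTL3-1 it stood 19.8-fold and 20.7-fold above, and under shMETTL3-2 19.9-fold and 20.9-fold. The METTL3 hairpins overlapped in this ratio, since both HMGA genes were lower under shMETTL3-2 than under shMETTL3-1.

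IGF2BP2 (ENSG00000073792, chromosome 3, 185361527 to 185542844, minus strand) scored 1890 and 1943 under shLuc. It scored 2640 and 2948 under shMETTL3-1, and 2888 and 2628 under shMETTL3-2. All 4 METTL3 hairpin libraries were higher than both shLuc libraries, and the hairpins overlapped with each other. The means of 1916 ± 37.5, 2794 ± 218 and 2758 ± 184 (SD, n = 2) correspond to a level 1.46-fold and 1.44-fold higher than under shLuc. The log2 differences of 0.54 and 0.52 were 6.22 and 6.02 times the SD between replicates. Such ratios only describe members chosen on these contrasts and are no test. The hairpins differed by -0.02, a sign that turned to 0.061 without shMETTL3-1 replicate 2 and to 0.050 without shMETTL3-2 replicate 2.

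IGF2BP3 (ENSG00000136231, chromosome 7, 23349828 to 23510086, minus strand) scored 483 and 534 under shLuc. It scored 368 and 433 under shMETTL3-1, and 685 and 568 under shMETTL3-2. Both shMETTL3-1 libraries were the lowest and both shMETTL3-2 libraries the highest, with no overlap. The means were 508.5 ± 36.1, 400.5 ± 46.0 and 626.5 ± 82.7 (SD, n = 2). The level was 1.27-fold lower under shMETTL3-1 and 1.23-fold higher under shMETTL3-2, or -0.35 and 0.30 on the log2 scale. The first became -0.23 without shMETTL3-1 replicate 1, and the second became 0.16 without shMETTL3-2 replicate 1.

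These IGF2BP3 differences were 2.20 and 1.88 times the SD between its replicates, and the hairpins differed by 0.64, or 4.09 times that SD. Its replicate SD of 0.157 exceeded the median of 0.0863 among genes of like score. MALSU1, a mitochondrial ribosome assembly gene on the opposite strand, ends 9.3 kb from IGF2BP3 in the transcript the table lists, but its GENCODE gene reaches into the IGF2BP3 3′ UTR. MALSU1 scored 188 and 191 under shLuc, 256 and 241 under shMETTL3-1, and 382 and 338 under shMETTL3-2, so it was higher with both hairpins whereas IGF2BP3 was lower with one. Without strand, reads from that overlap cannot be told apart.

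IGF2BP1 (ENSG00000159217, chromosome 17, 47074774 to 47133012, plus strand) was the lowest of the 3 readers. It scored 72 and 60 under shLuc, 64 and 80 under shMETTL3-1, and 54 and 55 under shMETTL3-2. The shLuc and shMETTL3-1 libraries overlapped, and both shMETTL3-2 libraries were below all others. The means were 66.0 ± 8.49, 72.0 ± 11.3 and 54.5 ± 0.707 (SD, n = 2).

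The log2 difference of IGF2BP1 was 0.12 under shMETTL3-1, which was 0.721 times the SD between replicates. It turned to -0.0087 without shLuc replicate 2 and to -0.038 without shMETTL3-1 replicate 2. With shMETTL3-2 it was -0.27, or 1.59 times that SD, and -0.14 without shLuc replicate 1. IGF2BP1 lay above only 4.66% to 9.40% of listed genes, and the median SD of genes at its level was 0.215. At this level the difference under shMETTL3-1 was smaller than the spread between libraries, and no change was tested.

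Summed over the 3 IGF2BP genes, the score was 2445 and 2537 under shLuc, 3072 and 3461 under shMETTL3-1, and 3627 and 3251 under shMETTL3-2. IGF2BP2 made up 77.3% and 76.6% of that sum under shLuc, 85.9% and 85.2% under shMETTL3-1, and 79.6% and 80.8% under shMETTL3-2. The share was thus highest in the shMETTL3-1 libraries, where IGF2BP3 was lowest. This is a share of scores not corrected for transcript length, and not of molecules.

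Levels of different genes can be set side by side only per length, here as the mean score per kb of the listed transcript. With shLuc the order was HMGA1 at 4156, IGF2BP2 at 447.5, IGF2BP3 at 119, HMGA2 at 15.4 and IGF2BP1 at 7.50 per kb. With shMETTL3-1 HMGA2 at 338.5 per kb passed IGF2BP3 at 93.7 and stood below IGF2BP2 at 652. With shMETTL3-2 HMGA2 at 229 per kb again stood above IGF2BP3 at 147 and below IGF2BP2 at 644. HMGA1 stayed highest (6845 and 4658 per kb) and IGF2BP1 lowest (8.19 and 6.196 per kb), and no neighbours in these orders overlapped between single libraries. Scores are mapped to a common distribution, so these are ranks of level and not molecule numbers.

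Between shMETTL3-1 and shLuc 4 of the 5 members did not overlap, as 79.4% of all tested genes did not. Of the members 3 were higher and 1 lower, against 41.4% and 38.0% of tested genes. Between shMETTL3-2 and shLuc none of the 5 overlapped, against 78.5% of tested genes. There 4 members were higher and 1 lower, against 40.4% and 38.1%. Between the hairpins 4 of the 5 did not overlap, against 82.2%. There 1 was higher and 3 lower under shMETTL3-2, against 40.9% and 41.3%. These counts come from the contrasts that the choice of members used, so nothing is read from them. HMGA1, HMGA2 and IGF2BP2 were higher in all 4 METTL3 hairpin libraries than in both shLuc libraries, as were 23.2% of tested genes. Both hairpin comparisons share the shLuc libraries. HMGA2 alone of the 5 differed by more than 1 on the log2 scale. Of all tested genes, 0.330% differed as much as HMGA2 under shMETTL3-1 in either direction, whereas 33.4% differed as much as IGF2BP2, 23.1% as HMGA1 and 50.4% as IGF2BP3.

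**Figure D3:**
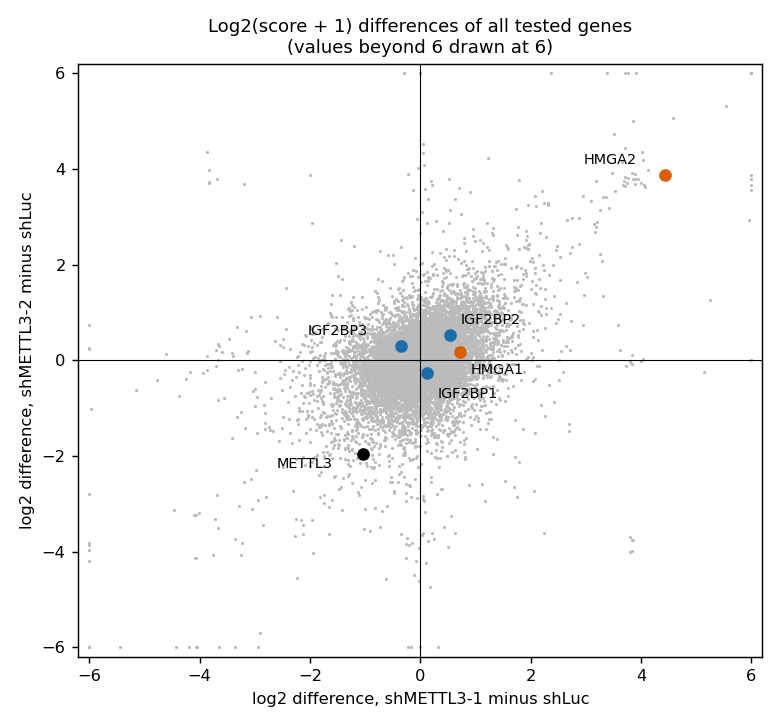
Log2(score + 1) difference of every tested gene under shMETTL3-1 (x) and shMETTL3-2 (y) against the same shLuc libraries; grey points are genes, coloured points the HMGA and IGF2BP genes, black METTL3. HMGA2 lies far to the upper right at 4.43 and 3.87, IGF2BP3 lies left of 0 and above 0, and the other members lie within the cloud.

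The genes nearest in pattern were found by the root mean square difference over the 6 libraries of log2(score + 1) centred on the shLuc mean, among 12188 genes. No gene came within 0.25 of HMGA2. That limit is an absolute distance, and only 0.330% of tested genes differed as much as HMGA2 under shMETTL3-1. The count thus depends on the size of the differences for which HMGA2 was chosen. The closest was LCP1, an actin-bundling protein, at 0.447, followed by CAV2, a caveolar protein, at 0.677 and CLDN1, a tight junction protein, at 0.697. LCP1 scored 22 and 29 under shLuc, 326 and 357 under shMETTL3-1, and 340 and 410 under shMETTL3-2, so it lacked the step down between hairpins seen in HMGA2.

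The other members, whose differences from shLuc were smaller, had many genes of like pattern. Within 0.25 lay 1217 genes for HMGA1, 2288 for IGF2BP1, 1430 for IGF2BP2 and 1467 for IGF2BP3. The nearest to HMGA1 were FASTK, ARFGAP1 and PCYOX1 (0.0419 to 0.0495), and those to IGF2BP2 were METTL23, PIGZ and FBXL19 (0.0235 to 0.0298). The nearest to IGF2BP1 were TCEA3, UBR2 and ZNF442 (0.0535 to 0.0595). Nearest to IGF2BP3 were KAT8, a histone acetyltransferase, PRIMPOL, a primase-polymerase, and EGFR, a growth factor receptor (0.0603 to 0.0836). EGFR scored 1708 and 1737 under shLuc, 1287 and 1410 under shMETTL3-1, and 2345 and 2168 under shMETTL3-2, low with the first hairpin and high with the second as IGF2BP3 was.

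Neither listed gene beside HMGA2 was higher with a METTL3 hairpin. MSRB3, a methionine sulfoxide reductase 357.2 kb before HMGA2, scored 3416 and 3668 under shLuc, 180 and 158 under shMETTL3-1, and 1952 and 2259 under shMETTL3-2. It fell by 4.38 under shMETTL3-1 (SE 0.0950, adjusted p = 5.0e-07, limma) and by 0.75 under shMETTL3-2 (SE 0.0950, adjusted p = 0.000425) on the log2 scale. LLPH, a nucleolar protein 156.8 kb after HMGA2, scored 388 and 312 under shLuc, 319 and 267 under shMETTL3-1, and 66 and 49 under shMETTL3-2. It fell under shMETTL3-2 (log2 -2.59, SE 0.184, adjusted p = 2.71e-05), and its change under shMETTL3-1 was -0.25 (adjusted p = 0.275). Under shMETTL3-1 MSRB3 was called lower, and under shMETTL3-2 both neighbours were, against 28.4% and 28.8% of all tested genes called lower. A link to the HMGA2 level was not tested.

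Next to IGF2BP2, SENP2, a SUMO protease 34.5 kb away on the opposite strand, rose with both hairpins (log2 0.94 and 0.54, adjusted p = 7.63e-06 and 8.795e-05, limma), in the direction of IGF2BP2. TRA2B, a splicing regulator on its other side, had log2 changes of -0.25 (adjusted p = 0.0255) and -0.17 (adjusted p = 0.100). The TRA2B call was lost without shLuc replicate 2 or either shMETTL3-1 library (adjusted p up to 0.144). Next to IGF2BP1, SNF8, an endosomal sorting subunit, fell under shMETTL3-1 (-1.82, adjusted p = 1.13e-06) and rose under shMETTL3-2 (0.37, adjusted p = 0.000716). C6orf1, on the opposite strand, whose 3′ end lies 148 bases beyond that of HMGA1, rose under shMETTL3-2 (0.83, adjusted p = 3.11e-05) while its shMETTL3-1 difference was 0.04 (adjusted p = 0.587).

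**Figure D4:**
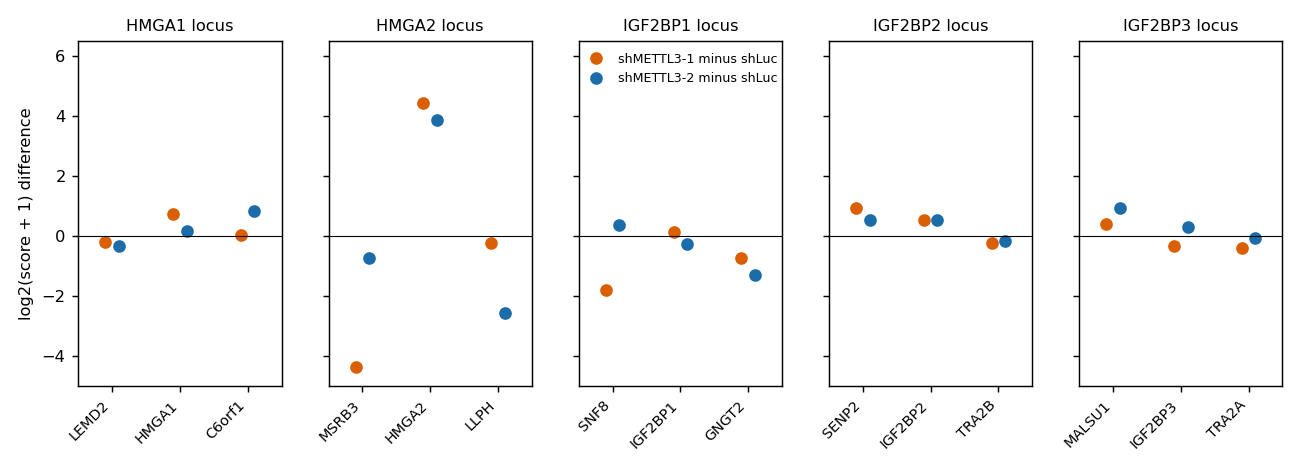
Log2(score + 1) difference from shLuc of each member (middle of each panel) and of the listed genes before and after it on its chromosome, under shMETTL3-1 in orange and shMETTL3-2 in blue. MSRB3 and LLPH lie below 0 beside HMGA2 at 4.43 and 3.87.

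LIN28B, the let-7 blocker, was listed at 0 in both shLuc and both shMETTL3-2 libraries and at 172 and 221 under shMETTL3-1. LIN28B reached the mean score of 50 needed for testing only through the shMETTL3-1 libraries. Its limma call under shMETTL3-1 is thus no independent test, and its p-value is left out. That call was also lost without either shMETTL3-1 library. LIN28B is still counted as higher under shMETTL3-1 in each list that holds it. In the shMETTL3-2 libraries, where LIN28B was listed at 0, HMGA2 scored 963 and 920. A score of 0 is the floor at unknown depth, let-7 was not measured, and a link between LIN28B and HMGA2 was not tested. Of 14 tested genes of the let-7 and LIN28 machinery 5 were higher and 3 lower under shMETTL3-1, against 30.3% and 28.4% of all tested genes (58.7% called either way). With shMETTL3-2 4 were higher and 6 lower, against 30.8% and 28.8% (59.6%). Between the hairpins 4 were higher and 8 lower under shMETTL3-2, against 31.9% and 31.1% (63.0%). The medians of this list were 0.12 and -0.19, those of all tested genes 0.01 and 0.01. The count of 8 under shMETTL3-1 fell to 5 without either shMETTL3-1 library, and that of 12 between hairpins to 6 without shMETTL3-1 replicate 2. Of the 5 higher ones, 2 calls were left without either shMETTL3-1 library and 3 without shLuc replicate 1.

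DICER1, the nuclease that cuts mature microRNAs from hairpins, rose with both (log2 1.49 and 0.88, adjusted p = 5.56e-06 and 5.69e-05, limma). It scored 1516 and 1312 under shLuc, 3990 and 3959 under shMETTL3-1, and 2643 and 2534 under shMETTL3-2. Its partner TARBP2 rose (0.67 and 0.47), and the exporter XPO5 fell (-1.06 and -0.49, adjusted p = 7.62e-06 and 0.000252).

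Other genes known as let-7 targets went both ways. Of 28 tested, 16 were higher and 7 lower under shMETTL3-1 (median 0.24), against 30.3% and 28.4% of all tested genes. Under shMETTL3-2, 8 were higher and 12 lower (median -0.03), against 30.8% and 28.8%. Called either way were 82.1% and 71.4% of the list, against 58.7% and 59.6% of all tested genes. Between the hairpins 9 were higher and 16 lower under shMETTL3-2 (median -0.43). That is 89.3% of the list called, against 63.0% of all tested genes. Without shMETTL3-1 replicate 1 the 7 lower became 4. With both hairpins 4 were higher and 3 lower, where 15.7% and 13.4% of all tested genes were. FNIP1, a folliculin partner, rose (log2 1.39 and 1.89), as did E2F6, a transcriptional repressor (0.81 and 1.54). TGFBR1, the type I TGF-beta receptor, fell (-0.67 and -0.99), as did RRM2, a ribonucleotide reductase subunit (-0.81 and -0.24).

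Transcripts known to be bound by IGF2BPs also went both ways. Of 28 tested, 14 were higher and 10 lower under shMETTL3-1, against 30.3% and 28.4% of all tested genes, and 8 higher and 13 lower under shMETTL3-2, against 30.8% and 28.8%. With both hairpins 4 were higher and 5 lower, against 15.7% and 13.4%. The 14 include LIN28B, which passed the filter on mean score only through the shMETTL3-1 libraries. Without either shMETTL3-1 library the 14 higher became 9. The medians were 0.09 and -0.05. IGF2, the growth factor after which the readers are named, scored 3612 and 3516 under shLuc, 3072 and 2948 under shMETTL3-1, and 2888 and 2602 under shMETTL3-2. It fell with both (log2 -0.24 and -0.38, adjusted p = 0.0121 and 0.00153, limma), the first of which was lost without shLuc replicate 1 (adjusted p = 0.0675) or shMETTL3-1 replicate 2 (adjusted p = 0.0831). FOXK1, a forkhead factor, rose by 0.58 and 0.59. HK2, a hexokinase, fell (-2.04 and -1.14), as did HDGF, a growth factor (-0.60 and -0.72).

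Among proteins that work beside IGF2BPs or also bind m6A, 4 of 18 were higher and 6 lower under shMETTL3-1, and 3 higher and 4 lower under shMETTL3-2 (medians -0.10 and -0.00). That is 55.6% and 38.9% of this list called, against 58.7% and 59.6% of all tested genes. Under shMETTL3-2 the 4 lower became 2 without either shMETTL3-1 library, and the 3 higher became 5 without shMETTL3-2 replicate 2 and 2 without shLuc replicate 1. PABPC1, the poly(A)-binding protein, rose (log2 0.68 and 1.06), as did LRPPRC (0.67 and 0.86). Of 18 other high mobility group and linker histone genes 2 were higher and 8 lower under shMETTL3-1, and 6 higher and 7 lower under shMETTL3-2 (medians -0.10 and 0.05), or 55.6% and 72.2% of the list, against the same 58.7% and 59.6%. H1FX, a linker histone, fell with both (-2.02 and -0.67, adjusted p = 4.22e-06 and 0.000634). The count of 10 called genes under shMETTL3-1 fell to 6 without either shMETTL3-1 library, and that of 13 under shMETTL3-2 fell to 7 without shLuc replicate 1.

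Of 22 tested genes linked to the action of HMGA2 or HMGA1, 10 were higher and 8 lower under shMETTL3-1 (median 0.14), and 6 were higher and 6 lower under shMETTL3-2 (median 0.08). That is 81.8% and 54.5% of the list, against 58.7% and 59.6% of all tested genes. Without shMETTL3-1 replicate 2 the 8 lower became 3. SNAI2, a mesenchymal repressor, scored 112 in both shLuc libraries, 828 and 934 under shMETTL3-1, and 290 and 286 under shMETTL3-2. It rose with both (log2 2.96 and 1.35, adjusted p = 1.42e-06 and 2.17e-05, limma). SNAI2 was higher under shMETTL3-1 than under shMETTL3-2 (difference -1.61, adjusted p = 8.54e-06). Among other mesenchymal factors of the list, named after their values were seen, SNAI1 had differences of -0.38 (adjusted p = 0.0431) and 0.27 (adjusted p = 0.120). The SNAI1 call was lost without any 1 library other than shLuc replicate 2 (adjusted p = 0.0563 to 0.192). TWIST1 had differences of 0.14 (adjusted p = 0.736) and 0.08 (adjusted p = 0.836). VIM, a mesenchymal filament gene of the same list, had differences of 0.24 (adjusted p = 0.200, limma) and -1.61 (adjusted p = 0.000141, limma). It was thus lower under shMETTL3-2, where SNAI2 was higher. RB1, the retinoblastoma protein that HMGA2 binds, fell (-0.43 and -0.33), and JUNB, an AP-1 subunit, rose (0.30 and 0.95).

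**Figure D5:**
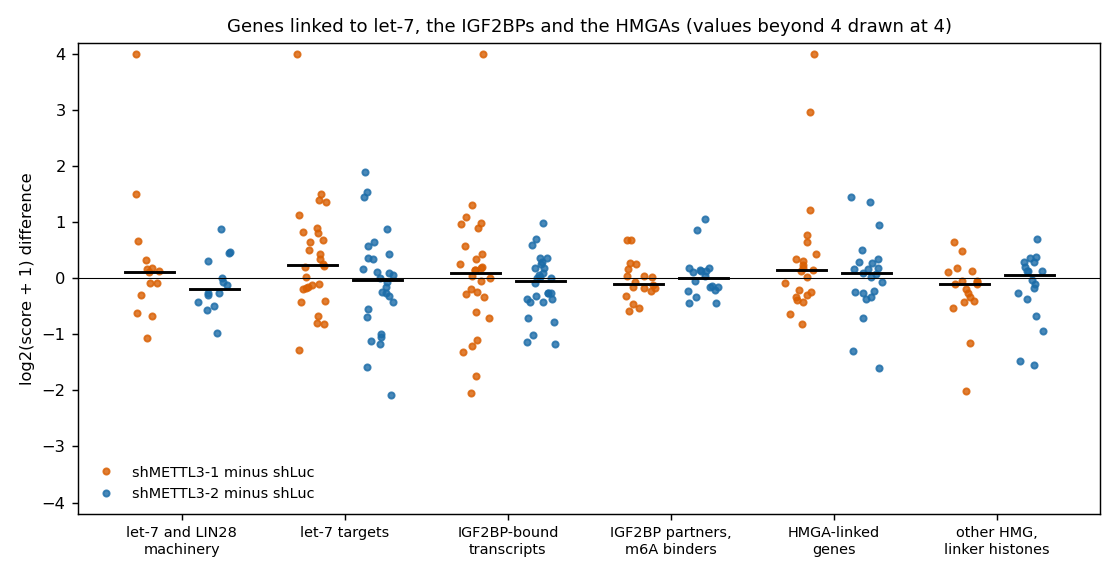
Log2(score + 1) difference from shLuc of each tested gene in 6 lists of genes linked to the members, by hairpin, with the list median as a black bar. All list medians lie between -0.19 and 0.24, and genes lie on both sides of 0 in every list.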

How the data were processed

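RNA-seq of LX2 cells was analysed from 1 deposited table of 12654 genes with a score per library. The submitters' processing notes name hg19 and DESeq2, with no role; the sources used here do not give the aligner or counter. The deposited scores are whole numbers, but all 6 columns share a median of 552 and a maximum of 72566, and their totals run from 16535130 to 16536605. They were therefore treated as scores on 1 common distribution and no count model was run. Depth per library is unknown, counting error cannot be computed, and a common shift of all genes would be lost.

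Log2(score + 1) was fitted with limma 3.58.1 in R 4.3.3 over all 6 libraries (1 mean per group, mean-variance trend, robust moderation, 3 residual degrees of freedom). Tested were 12413 genes, those whose mean score reached 50. P-values are two-sided and Benjamini-Hochberg adjusted over all of these genes, with calls under 0.05. The fit was also run on simulated normal values, which lack the shared distribution and the steps of high scores. That run therefore does not check the p-values of the deposited scores. The 5 genes and all gene lists were chosen with earlier results of these data known, so the 5 genes are described without p-values. Genes are named for being next to a member on its chromosome, for being 1 of the 3 nearest to a member in pattern, or for being among the largest changes of a pathway list, up to 6 called the same way and up to 3 called opposite ways by the hairpins (at least 10 in every library). METTL3, LIN28B, IGF2, MYC, ACTB and CD44 could be named whatever their values. Some genes that this rule selects are not reported here. Seed matches were searched in GENCODE transcripts lifted to GRCh37, the build the table uses. Alternatives were pseudocounts of 10 and 50, other filters, no trend, a replicate block and leaving out each library. Whether replicate libraries are separate cultures is not stated, so the spread behind each p-value may be technical.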

Additional observations from a re-analysis of the deposited data

Results flagged for a closer look

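Both shMETTL3-1 libraries of IGF2BP3 lay below both shLuc libraries (log2 -0.35) and both shMETTL3-2 libraries above them (0.30), a gap of 0.64 between hairpins that was not tested. In 12 named genes of the pathway lists the hairpins were called in opposite directions from shLuc (limma). These are only part of the opposite calls. The lists held 8 of 28 let-7 targets, 8 of 28 IGF2BP-bound transcripts and 6 of 22 HMGA-linked genes. They also held 2 of 18 IGF2BP partners, 3 of 18 other high mobility group genes and 0 of 14 of the let-7 machinery. Some genes are in more than 1 list. Of all tested genes, 58.7% were called against shLuc with shMETTL3-1 and 59.6% with shMETTL3-2. The share of all tested genes called in opposite directions was not computed, so nothing is read from these counts. Of the 12 named genes, 11 were named for their opposite calls, so the differences between hairpins are given as a description, without a test. With shMETTL3-2 minus shMETTL3-1 on the log2 scale, genes higher with shMETTL3-1 were NRAS (-2.08), BACH1 (-2.09), TET1 (-2.52) and BTRC (-1.75). MYC (-0.53) and STAU1 (-0.42) were also higher there. Genes higher with shMETTL3-2 were IL6 (2.27), FSCN1 (1.502), HMGN4 (1.11), HMGB2 (0.81), G3BP2 (0.76) and HMGXB4 (0.55). When each library was left out in turn, 3 of the 12 (NRAS, BACH1 and TET1) kept both calls against shLuc in every fit, and the others lost a call in at least 1.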

How the results depend on the processing

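The log2 difference of HMGA2 depended on the pseudocount through its low shLuc scores. With shMETTL3-1 it was 4.255 at a pseudocount of 10 and 3.67 at 50, and with shMETTL3-2 3.69 and 3.13. With libraries left out in turn it ran from 4.401 to 4.47 and from 3.84 to 3.90. For IGF2BP1 with shMETTL3-1 that range was -0.038 to 0.28, and for IGF2BP2 between hairpins -0.10 to 0.061. Called genes of the let-7 machinery ranged from 5 to 9 with shMETTL3-1 and from 6 to 11 between hairpins. Those of the high mobility group list ranged from 6 to 11 with shMETTL3-1 and from 7 to 11 with shMETTL3-2. Without trend and robust moderation, 4 and not 7 IGF2BP partners were called with shMETTL3-2 (the cause was not tested). Calls over all genes were within 1.5 times in every setting run. Of 204 comparisons of named genes, 47 changed call when 1 library was left out. Deviations of replicate 1 from its group mean correlated weakly between groups (0.0153 to 0.0473). This does not settle whether replicate numbers pair libraries. The replicate block left member differences as they were and added 5 calls among named genes, and called 7698 genes with shMETTL3-1 and 7769 with shMETTL3-2, against 7281 and 7400 without it. Of the 15 nearest genes, 12 were shared at a pseudocount of 10. Depth is unknown, and scores at the floor or among the highest carry little resolution.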
